A study of Mus musculus with 3 samples.

Results

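The endothelial cells described here are 159 barcodes of a GFP-positive single-cell library that carried much Sox17 RNA. Sox17 is a SoxF transcription factor known for its role in arterial endothelium. The members were chosen by UMI counts of 4 genes: a barcode had to have at least 500 genes, at least 4 UMIs (counted transcript molecules) of Pecam1 and Cdh5 together, at least 4 UMIs of Sox17 and under 5 UMIs of Gkn3. Pecam1 and Cdh5 encode endothelial junction proteins. Of the 3300 barcodes with at least 500 genes in this library, 2509 passed the endothelial threshold, so the 159 Sox17-high barcodes made up 6.34% of them (exact binomial 95% interval 5.42 to 7.36%). The other 2350 endothelial barcodes are the main comparison. A closer comparison is the 251 endothelial barcodes with Gkn3 at 5 UMIs or more, called Gkn3-high, of which 82 also had Sox17 at 4 UMIs or more and were kept out by Gkn3 alone.

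The series held 3 libraries of ICR mice with the genotype HCN4H2BGFP at postnatal day 2, in which a nuclear GFP reports the pacemaker channel gene Hcn4. The GFP-positive and GFP-negative libraries were sorted by flow cytometry from the sinoatrial node region. The RA library was not sorted, and its tissue label also gives that region. All groups carried the reporter, the number of animals was not stated, and there was 1 library per group, so no test between samples was possible and all intervals cover counting error only. The 3 libraries held 3346, 3276 and 1450 barcodes and 50416748, 38204709 and 19975326 UMIs (GFP-positive library first, RA library last). The GFP-positive library shared 19 barcode sequences with the GFP-negative library and 8 with the RA library, and no member barcode was also a member in another library.

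Arterial endothelium is set apart during vessel growth by VEGF and Notch signals, with ligands such as Dll4 and Jag2, receptors Notch1 and Notch4, and target genes such as Hey1 and Hey2. SoxF factors act together with this pathway. The chemokine Cxcl12 and its receptor Cxcr4 guide the growth of coronary arteries, and the connexins Gja4 and Gja5 join arterial endothelial cells. Capillary endothelium of the heart takes up fatty acids with Cd36, Fabp4 and Gpihbp1, veins are known for the transcription factor Nr2f2, and large elastic arteries are surrounded by elastin, the product of Eln.

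The barcodes were endothelial by markers the rule did not use. All 10 genes of an endothelial list (Kdr, Tie1, Tek, Cldn5, Egfl7, Esam, Ecscr, Robo4, Erg and Fli1) were read, with a median of 89 UMIs per member and at least 10 UMIs in all 159. The members ran from 4912 to 63073 UMIs with a median of 16437, against a median of 11709.5 for the other endothelial barcodes, 17869 for the Gkn3-high barcodes and 11388 for the 189 mesothelial barcodes. A UMI threshold is passed more easily by deep barcodes, so levels are given in CPM, a gene's UMIs scaled to a fixed total over the summed barcodes, and shares of barcodes also after each was thinned to 3000 UMIs. Sox17 itself ranged from 4 to 71 UMIs with a median of 7. The share of mitochondrial UMIs had a median of 2.69% in members and 3.09% in the others.

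The 4 markers other than Sox17 that go with the label of arterial cells were all more abundant in the members. Sema3g, a secreted semaphorin of arterial endothelium, stood at 108 CPM in the members and 9.93 CPM in the other endothelial barcodes. Rbp7, a retinol binding protein of microvascular endothelium, stood at 531 against 54.7 CPM. Of its 1740 UMIs in the members 1 barcode held 373. Gja5 stood at 237 against 66.1 CPM and Cxcr4 at 23.8 against 2.19 CPM. These are ratios of 10.9-fold for Sema3g (log2 3.44, interval 3.22 to 3.66), 9.71-fold for Rbp7 (3.28, 3.18 to 3.37), 3.59-fold for Gja5 (1.85, 1.73 to 1.96) and 10.9-fold for Cxcr4 (3.44, 2.97 to 3.92).

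These markers were not read in all members. Gja5 and Rbp7 were each read in 99 of the 159 barcodes (62.3%), Sema3g in 93 (58.5%) and Cxcr4 in 42 (26.4%). Free RNA in droplets also gives such reads, and the mesothelial barcodes, which should lack these genes, showed them in 10.1%, 6.88%, 3.17% and 2.65% of cases. At 3000 UMIs each, the share for Gja5 was 37.1% in members, 9.45% in the other endothelial barcodes and 2.12% in mesothelial barcodes, and for Cxcr4 9.43%, 0.43% and 1.06%. Of the members 29 read all 4 markers, 33 read 3, 39 read 2, 40 read 1 and 18 read none, while 61.1% of the other endothelial barcodes read none and 0.511% read all 4. Members without a read of Gja5 are described with the clusters.

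Cxcl12 had the widest difference of the arterial genes. It stood at 784 CPM (interval 754 to 815) in the members and 25.9 CPM (24.3 to 27.7) in the other endothelial barcodes, a ratio of 30.2-fold (log2 4.92, 4.81 to 5.03). Within the members it was uneven: 54 barcodes had no UMI, 54 had 1 to 11 and 51 had 12 or more, up to 117. Of mesothelial barcodes 9.52% had a read. The ligand was read in 40 of the 42 members with a read of its receptor Cxcr4. Ackr3, a scavenger receptor for the same chemokine, was lower in the members, at 79.1 against 201 CPM.

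Of 15 listed genes of the Notch pathway 12 were measured, 7 were past 1.5-fold higher (a log2 ratio of at least 0.58) and none was lower, and 5 lay between. Over all 7979 measured genes 629 (7.88%) were that much higher. Dll4 stood at 56.2 CPM in the members and 12.9 CPM in the others, and Jag1 at 167 against 81.5 CPM. Jag2, another ligand, stood at 17.4 against 1.43 CPM, just under the mean level of 10 CPM that a gene needed to count as measured. Of the receptors Notch4 stood at 46.7 against 16.6 CPM, whereas Notch1 was nearly level at 112 against 110 CPM. The target Hey1 stood at 127 against 23.2 CPM, 5.49-fold higher, and Hey2 at 22.0 against 11.9 CPM. Mfng, a glycosyltransferase that modifies Notch receptors, stood at 119 against 57.2 CPM.

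Of a list of 38 arterial genes without the SoxF factors, 34 were measured, and 21 were past 1.5-fold higher, beside the same 7.88% of all measured genes. The list includes the Notch genes. The median log2 ratio of the list was 1.20, beside -0.01 over all measured genes. The listed genes past the fold included the lymphatic and arterial growth factor Vegfc (178 against 25.8 CPM), the netrin receptor Unc5b (85.8 against 25.8 CPM), glutamine synthetase Glul (327 against 75.2 CPM), the lipoxygenase Alox12 (24.1 against 1.78 CPM) and the hypoxia factor Epas1 (351 against 123 CPM). Stmn2, Igfbp3 and Mecom were higher as well, at 966, 168 and 184 CPM against 261, 44.3 and 71.9 CPM. Igfbp3 was not particular to endothelium, at 391 CPM in mesothelial barcodes, where 57.7% had a read. Some well known arterial genes did not separate these barcodes: Efnb2 stood at 112 against 90.6 CPM, Bmx at 84.3 against 87.5 CPM and Nrp1 at 501 against 346 CPM. Ackr3 was the listed gene past the fold in the lower direction, where 8.32% of all measured genes fell.

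Of the other SoxF factors Sox18 stood at 47.0 against 21.3 CPM and Sox7 at 100 against 87.4 CPM, the latter within 1.5-fold. Among axon guidance genes, which also steer vessel sprouts, 7 of 19 measured were past 1.5-fold higher and 3 lower. Over all measured genes 7.88% were higher and 8.32% lower. Sema7a stood at 57.1 against 4.27 CPM and Robo4 at 41.5 against 11.3 CPM. Pdgfb, the growth factor by which endothelium recruits mural cells, stood at 64.1 against 10.9 CPM. In the BMP and TGF-beta list 2 of 15 measured genes were past the fold in the higher direction and 3 in the lower. With so few genes these counts are not set apart from the same shares of all genes. The 2 higher genes were the receptor Acvrl1 (149 against 53.7 CPM) and the target Id1 (635 against 248 CPM).

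**Figure D1:**
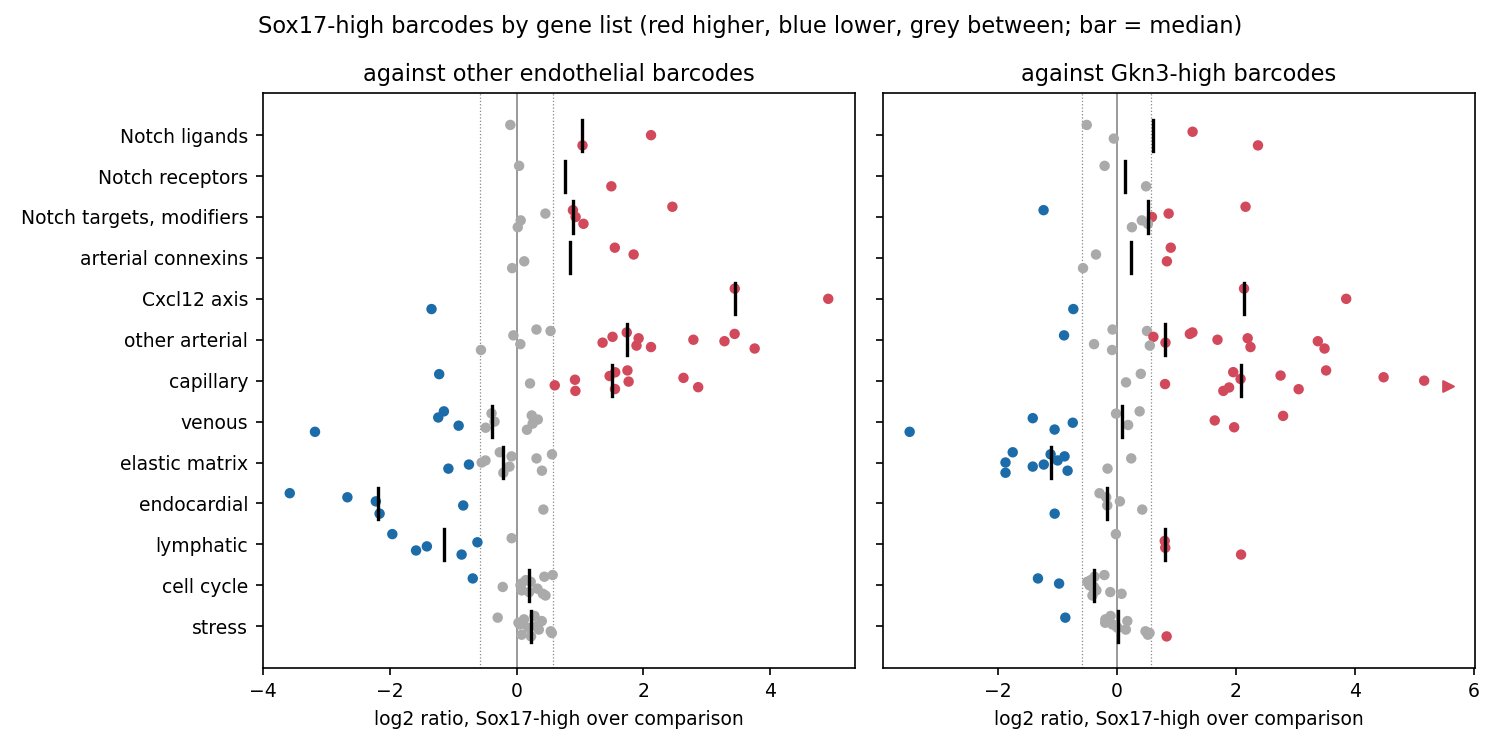
Log2 ratio of each measured gene of 13 lists, Sox17-high barcodes over the other endothelial barcodes (left) and over the Gkn3-high barcodes (right). Each point is a gene, red where past 1.5-fold higher, blue where lower and grey between, with the list's median as a black bar and dotted lines at log2 0.58 in each direction. A triangle is a lower bound, for a gene without a UMI in the comparison. The capillary list lies to the right in both panels, with medians of 1.51 and 2.08, and the elastic matrix list lies to the left against the Gkn3-high barcodes, with a median of -1.12.

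Most measured genes of a capillary list were more abundant in the members, but this differed between the clusters described further on. Of 15 listed genes 12 were measured, 10 were past 1.5-fold higher and 1 was lower, with a median log2 ratio of 1.51. Over all measured genes the shares were 7.88% higher and 8.32% lower. The fatty acid transporter Cd36 stood at 493 against 147 CPM, the fatty acid binding protein Fabp4 at 6120 against 2084 CPM, and Rgcc at 232 against 37.5 CPM. Gpihbp1, which carries lipoprotein lipase to the capillary lumen, stood at 363 against 131 CPM, and Btnl9 at 29.3 against 4.03 CPM. The transcription factor Tcf15 stood at 160 against 54.5 CPM. Without the 52 barcodes of cluster 3 the median of the list was 0.46 and Gpihbp1 changed sign to -0.77. Fabp5 was the exception, at 908 against 2119 CPM, and was higher in the members instead once lymphatic, endocardial and cycling barcodes were left out (log2 0.29).

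Genes of veins, endocardium and lymphatic vessels were on balance lower. Over all measured genes 7.88% were past 1.5-fold higher and 8.32% lower. In the venous list 4 of 11 measured genes were past 1.5-fold lower and none was higher: Nr2f2 stood at 71.4 against 159 CPM, the clotting factor Vwf at 236 against 556 CPM, the sialomucin Emcn at 343 against 648 CPM and Rspo3 at 8.24 against 76.2 CPM. The apelin receptor gene Aplnr was on the same list and stood at 144 against 114 CPM. In the endocardial list 5 of 6 measured genes were lower, with Npr3 at 11.0 against 133 CPM, and in the lymphatic list 5 of 6, with the lymphatic transcription factor Prox1 at 14.96 against 58.9 CPM. Those lists compare the members with a mixed set that held endocardial and lymphatic barcodes. Without barcodes rich in lymphatic, endocardial or cell cycle genes in either set, 67 members and 822 others remained, the endocardial median moved from -2.19 to -0.20 and Npr3 changed sign to 0.41. The elastic matrix list was close to level, with none of 11 measured genes past 1.5-fold higher and 2 lower, a median of -0.21 and Eln at 11511 against 13852 CPM. Its sign depended on the comparison, with a median of 0.25 once the Gkn3-high barcodes were left out of the others.

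Cell cycle and dissociation stress genes were close to level between members and others taken whole, but cell cycle genes differed between the clusters described further on. Of 13 cell cycle genes none was past 1.5-fold higher and 1 was lower, with a median log2 ratio of 0.20. Over all measured genes the shares were 7.88% and 8.32%. At least 10 UMIs of cell cycle genes were read in 20.8% of members and 10.9% of the others, which were less deep. Of 13 immediate early and heat shock genes none was past the fold, with a median of 0.23. The GFP transcript of the reporter was read in 56.6% of members, 37.7% of the others and 20.6% of mesothelial barcodes (13.8%, 11.0% and 7.41% at 3000 UMIs each), at 55.9 against 42.1 CPM, and Hcn4 itself was near 0 in both, at 1.22 and 1.78 CPM.

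Markers of other cell types were read in both sets, and for most types at a lower summed level in the members. The airway secretory genes Scgb1a1, Scgb3a2 and Cyp2f2 summed to 367 CPM in members and 3901 CPM in the others, where 1 barcode alone had 26737 UMIs of them. Scgb3a2 was read in 98.1% of members, 95.9% of the others and 96.3% of mesothelial barcodes, a like share in every class. Cardiomyocyte genes summed to 378 against 990 CPM, fibroblast genes to 570 against 1596 CPM, and mesothelial genes to 154 against 293 CPM, each list with all its genes read. At least 10 UMIs of cardiomyocyte genes were read in 28.9% of members (up to 29) and 16.3% of the others (up to 2262). Of the members 43 (27.0%) had at least 10 UMIs of fibroblast genes, up to 346, and 6 had at least 10 of mesothelial genes, up to 88. In the others 49.4% had at least 10 UMIs of fibroblast genes. Mural genes summed to 96.8 against 49.0 CPM, and 1 member had 110 UMIs of them. Erythroid genes summed to 45.2 against 49.8 CPM, with Alas2 at 0 in members. Macrophage genes (Fcgr1 and Adgre1 at 0) and leukocyte genes (Ptprc, Nkg7, S100a8 and S100a9 at 0) came to 10.1 and 0.916 CPM in members. The part of these reads in the differences above was not tested.

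Outside the lists, the 12 genes furthest above the other endothelial barcodes were led by Alpl, the tissue alkaline phosphatase, at 39.1 against 1.40 CPM. Car7, a carbonic anhydrase, stood at 51.3 against 2.54 CPM, Ly6c1 at 344 against 32.1 CPM, the lipase Mgll at 313 against 43.9 CPM and the filopodial motor Myo10 at 77.2 against 9.84 CPM. The others among the 12 were Ssu2, Nebl, Ablim3, C1qtnf9, Egfl8, Ifi203 and 8430408G22Rik, which stood at 252 against 22.4 CPM and is another name of Depp1 in the RefSeq gene table. Depp1 was on the arterial list but was not found under that name, so the counts of that list leave it out. The 12 genes furthest below were led by the ephrin receptor Epha7 (3.05 against 54.7 CPM), the airway gene Reg3g (13.1 against 196 CPM) and the activin subunit Inhba (4.88 against 71.2 CPM). Lypd2, Wfdc2 and Scgb3a1, also genes of airway epithelium, were among them. So were Ahsg, Col6a3, Gsta4, Ptn, Cldn11 and 6330403K07Rik. The airway genes were not read in fewer of the members, which were also deeper. Reg3g was read in 22.0% of members and 20.7% of the others, and Lypd2 in 10.1% and 9.40%. Wfdc2 was read in 33.3% and 28.8%, and Scgb3a1 in 100% and 96.2%.

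Levels differed with the number of Sox17 UMIs in endothelial barcodes with Gkn3 under 5 UMIs. From 1728 barcodes without Sox17 through 371 with 1 to 3 UMIs to 55, 49 and 55 members with 4 or 5, 6 to 9 and 10 or more, Cxcl12 stood at 11.7, 56.9, 290, 874 and 1021 CPM. Sema3g stood at 1.90, 11.6, 63.5, 104 and 136 CPM, and Gja4 at 235, 255, 483, 633 and 1024 CPM. Gja5 was level over the members, with 14.3, 73.2, 252, 212 and 245 CPM. Eln was highest in the middle group, with 8653, 13657, 21557, 12813 and 4831 CPM. The median depth also grew over these groups, from 10992.5 to 27589 UMIs, and its part in the order of the levels was not tested.

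**Figure D2:**
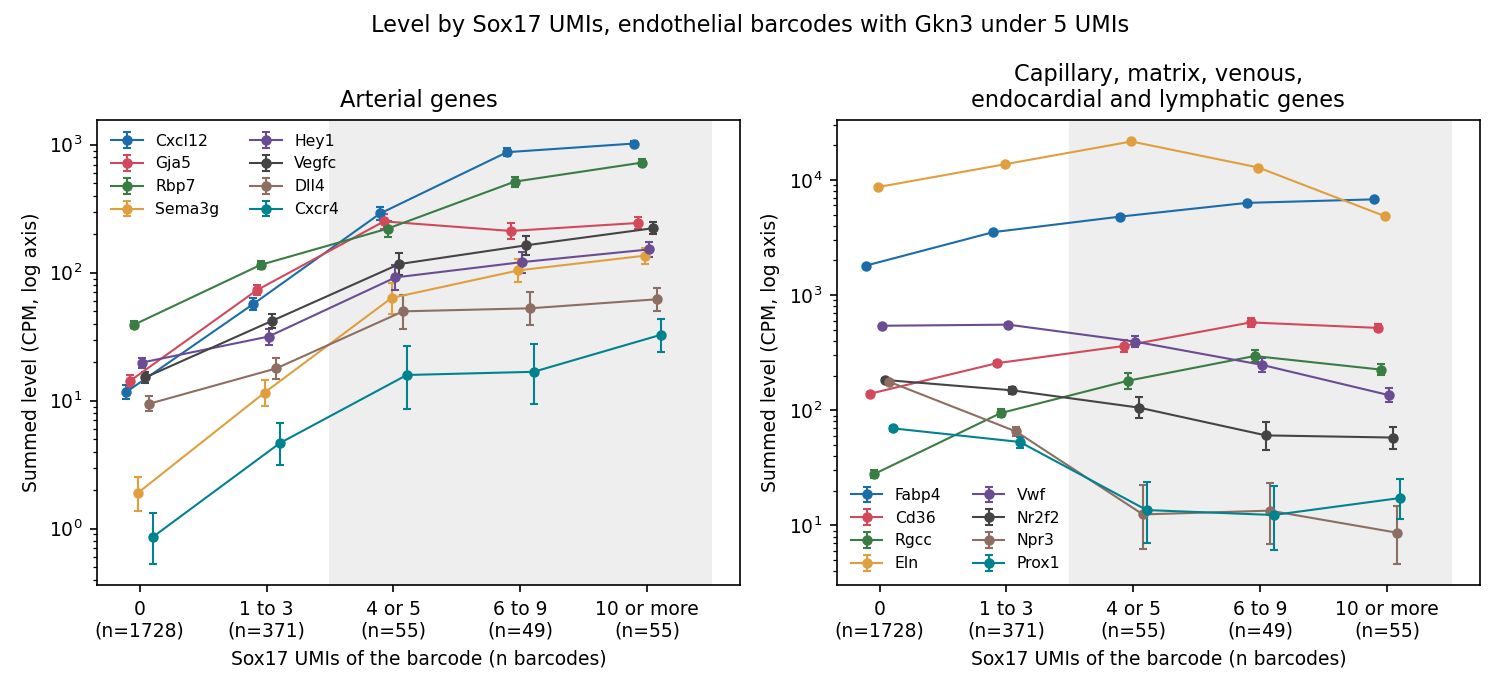
Summed level in CPM on a log axis by the Sox17 UMIs of the barcode, endothelial barcodes of the GFP-positive library with Gkn3 under 5 UMIs, with exact Poisson 95% intervals for counting error. The shaded groups are the members. Cxcl12 is at 11.7 CPM in the first group and 1021 CPM in the last, and Npr3 at 177 and 8.66 CPM.

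Barcodes just inside and just outside the Sox17 threshold were alike in some genes and not in others. The 27 barcodes with exactly 4 Sox17 UMIs, just inside, had Cxcl12 at 46.4 CPM, Gja5 at 188 CPM and Rbp7 at 84.0 CPM. The 44 barcodes with 3 UMIs, just outside, had 191, 154 and 353 CPM, so Cxcl12 and Rbp7 were higher just outside the threshold than just inside. Rbp7 was read in 36.4% of the barcodes outside and 40.7% of those inside. For Gja4, Dll4 and Sema3g the counting intervals overlapped. Gja4 stood at 344 CPM (301 to 391) outside and 283 CPM (236 to 336) inside. Dll4 stood at 37.1 CPM (24.0 to 54.7) and 31.0 CPM (16.9 to 51.9), and Sema3g at 31.1 CPM (19.3 to 47.6) and 46.4 CPM (28.7 to 71.0). At the Gkn3 threshold, 12 members with 3 or 4 Gkn3 UMIs had Eln at 30725 CPM and Cxcl12 at 417 CPM, and 17 barcodes with 5 or 6 Gkn3 UMIs and Sox17 at 4 or more had 27772 and 152 CPM.

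Against the Gkn3-high barcodes the members held less elastic matrix and more capillary RNA. Of 11 measured matrix genes 9 were past 1.5-fold lower, beside 8.09% of all 7858 genes measured in this comparison, with a median log2 ratio of -1.12. Eln stood at 11511 against 38816 CPM, 3.37-fold lower, the proteoglycan Bgn at 988 against 3626 CPM, Cytl1 at 524 against 1922 CPM and the crosslinking enzyme Lox at 125 against 334 CPM. Of 13 measured capillary genes 11 were past the fold in the higher direction, beside 9.09% of all genes. Cd36 stood at 493 against 42.9 CPM, Rgcc at 232 against 10.3 CPM and Kdr, the main VEGF receptor, at 245 against 57.9 CPM. Btnl9 had 96 UMIs in members and 0 in the Gkn3-high barcodes, and was at least 47.6-fold higher against a floor of 3 UMIs over that group.

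Both sets carried arterial RNA, but not the same genes in equal measure. Gja5 was slightly lower in the members, at 237 against 303 CPM, and Efnb2 (112 against 118 CPM) and Jag1 (167 against 174 CPM) were nearly level. The target Hey2 was lower, at 22.0 against 52.0 CPM, while Hey1 was higher, at 127 against 28.3 CPM. Cxcl12 stood at 784 against 54.0 CPM, Rbp7 at 531 against 50.9 CPM, Igfbp3 at 168 against 36.6 CPM and Vegfc at 178 against 55.0 CPM. Of the 38 arterial genes 35 were measured here, with 18 past 1.5-fold higher and 3 lower. Over all genes measured in this comparison 9.09% were higher and 8.09% lower. Of 8 genes of flow sensing and vessel tone 5 were lower and none was higher, among them prostacyclin synthase Ptgis (133 against 374 CPM), the angiotensin converting enzyme Ace (155 against 306 CPM) and the nitric oxide synthase Nos3 (124 against 217 CPM). The cell cycle inhibitor Cdkn1c stood at 389 against 134 CPM.

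Outside the lists, the 8 genes furthest above the Gkn3-high barcodes were C1qtnf9, 8430408G22Rik, Ablim3, Grap, Car7, Mndal and the basement membrane collagens Col4a1 (513 against 34.9 CPM) and Col4a2 (331 against 23.6 CPM). The 8 furthest below were Inhba (4.88 against 112 CPM), Col6a3, the transcription factor Tbx18 (7.63 against 54.4 CPM), 1500015O10Rik, Perp, Ephx2, the natriuretic peptide Nppc and the Wnt inhibitor Sfrp1 (143 against 881 CPM).

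Among barcodes with Sox17 at 4 UMIs or more, these levels were ordered by Gkn3. In 101 barcodes with no Gkn3, 58 with 1 to 4 UMIs and 82 with 5 or more, Eln stood at 7877, 17933 and 36958 CPM and Gja5 at 169, 359 and 428 CPM. Cxcl12 ran the other way, at 949, 492 and 116 CPM, as did Rbp7 at 687, 255 and 69.0 CPM and Cd36 at 603, 298 and 41.9 CPM. Gja4 was highest in the middle group, at 740, 827 and 579 CPM.

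The members were not of 1 kind. Clustering of the 159 barcodes, with every listed gene found under its listed name left out, gave 3 clusters of 71, 36 and 52 barcodes. The number of clusters was chosen after seeing the data, for its stability over settings: with 500 or 2000 variable genes or 15 or 20 components, 70 or 71 of the 71 barcodes stayed together, 33 to 36 of the 36, and 39 to 43 of the 52. With 5 clusters, cluster 1 came apart with 52 of its 71 barcodes in the larger piece. The genes outside the lists that led each cluster, and so helped to define it, were Dusp26, Eps8l2, Nebl and Alpl in cluster 1, Sfrp2, Clec3b, Crabp2 and Nt5e in cluster 2, and Lhx6, Col15a1, Fmo1 and Gchfr in cluster 3. Median depth was 14878, 19192 and 22940 UMIs. The listed genes below took no part in forming the clusters, though genes that vary with them did, so their levels are a description.

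Cluster 1, with 71 barcodes, had the highest Cxcl12, Dll4 and Hey1 of the 3 clusters. Cxcl12 stood at 1593 CPM and was read in 69 of the 71, with a median of 17 UMIs and a range of 0 to 117. Sox17 was also highest here, at 718 CPM, and the median depth was the lowest of the 3. Sema3g stood at 218 CPM, Dll4 at 106, Hey1 at 244, Vegfc at 365, Gja4 at 1473 and Cxcr4 at 50.04 CPM. Against the other endothelial barcodes 23 of 35 measured arterial genes were past 1.5-fold higher (14.5% of all measured genes were) and 9 of 10 venous genes were lower (13.7% of all were). Of the Notch list 7 of 13 measured genes were higher, beside 6 of 12 in each of clusters 2 and 3, so this count was similar in the 3 clusters. The median log2 ratio of that list was 1.31 in cluster 1, 0.60 in cluster 2 and 0.58 in cluster 3. Of the capillary list 7 of 12 measured genes were higher and 2 lower, with a median log2 ratio of 0.84. Of 12 measured cell cycle genes 11 were lower and none was higher, with Top2a at 3.97 CPM, and Cdkn1c stood at 578 CPM.

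Cluster 2, with 36 barcodes, carried elastic matrix. Eln stood at 34311 CPM, with a median of 709 UMIs per barcode and a range of 32 to 2148, near the 38816 CPM of the Gkn3-high barcodes. Bgn stood at 2998 CPM and Cytl1 at 1972 CPM. Gja5 was as high as in cluster 1, at 373 against 375 CPM, and Hey2 was highest, at 71.5 CPM, but Cxcl12 stood at 220 CPM and Rbp7 at 71.5 CPM. Of the 172 Cxcl12 UMIs of this cluster 1 barcode held 104. Of 11 measured matrix genes 8 were past 1.5-fold higher than in the other endothelial barcodes (11.2% of all genes were), and 9 of 13 cell cycle genes, with Top2a at 111 CPM. Of the arterial list 15 of 32 measured genes were higher and 4 lower, with a median log2 ratio of 0.49. In 21 of these 36 barcodes Gkn3 had 1 to 4 UMIs, and 19 had only 4 or 5 UMIs of Sox17. Of the capillary list 7 of 10 measured genes were lower (12.5% of all genes were).

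Cluster 3, with 52 barcodes, held part of the arterial list but little of Gja5, Sema3g and Hey2. Of 31 measured arterial genes 12 were past 1.5-fold higher than in the other endothelial barcodes (9.83% of all genes were) and 6 lower (12.8% of all were), with a median log2 ratio of 0.42, close to that of cluster 2. Cxcl12 stood at 317 CPM, above the 220 CPM of cluster 2, but was read in 18 of 52 barcodes. Gja5 stood at 11.3 CPM and was read in 9 of 52 (17.3%, beside 10.1% of mesothelial barcodes at lower depth), and Sema3g stood at 8.91 CPM. Hey2 had no UMI, which allows up to 2.99 CPM. Fabp4 stood at 11066 CPM, Cd36 at 886, Gpihbp1 at 837, Rgcc at 462 and Rbp7 at 765 CPM, and 13 of 14 measured capillary genes were past 1.5-fold higher. Rbp7 had a median of 1 UMI per barcode, with 373 UMIs in 1 barcode. Venous genes were present too: Aplnr stood at 352 CPM against 9.53 in cluster 1 and 33.2 in cluster 2, and was read in 44 of 52 barcodes (mesothelial barcodes, 10.1%), and Nr2f2 stood at 147 CPM. Of 11 measured venous genes 5 were higher and 2 lower. The arterial label thus held for these barcodes by part of its genes and not by Gja5 or Sema3g, which are among the 5 markers that go with it. Sox17 stood at 351 CPM, close to the 331 CPM of cluster 2, and 21 of the 52 barcodes had only 4 or 5 UMIs of it.

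With 4 clusters in place of 3, cluster 3 came apart into 32 and 20 barcodes while the other two stayed whole. The 32 barcodes had Rbp7 at 1196 CPM, Fabp4 at 15189, Cd36 at 1233, Rgcc at 727, Car4 at 65.2 and Cxcl12 at 513 CPM. The 20 barcodes had Vwf at 493 CPM, Nr2f2 at 236, Prox1 at 76.6 and Eln at 9196 CPM, with Cxcl12 at 12.4 CPM and Rbp7 at 95.2 CPM. Aplnr was present in both, at 406 and 267 CPM, and Gja5 low in both, at 14.6 and 6.21 CPM. Rbp7 was thus high in cluster 1 and in these 32 barcodes, and Gja5 in clusters 1 and 2. Of the 898 Rbp7 UMIs of these 32 barcodes 1 barcode held 373, and 75% of them had a read. In the 20 barcodes Sema3g stood at 2.07 and Gja4 at 149 CPM. The other endothelial barcodes had Cxcl12, Gja5, Sema3g and Gja4 at 25.9, 66.1, 9.93 and 264 CPM. The arterial label thus did not hold for the 20 barcodes by these genes. In the 32 barcodes Sema3g stood at 13.3 CPM (6.38 to 24.5) and Gja4 at 152 CPM. Of these genes only Cxcl12 was clearly higher there than in the others, and it was read in 40.6% of the 32. Hey1 was also higher in the 32, at 61.2 against 23.2 CPM, and Jag1 lower, at 33.3 against 81.5 CPM. Vegfc and Jag1 were higher in the 20 barcodes, at 51.8 and 128 against 25.8 and 81.5 CPM. So were Nr2f2 and Aplnr of the venous list (others, 159 and 114 CPM).

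**Figure D3:**
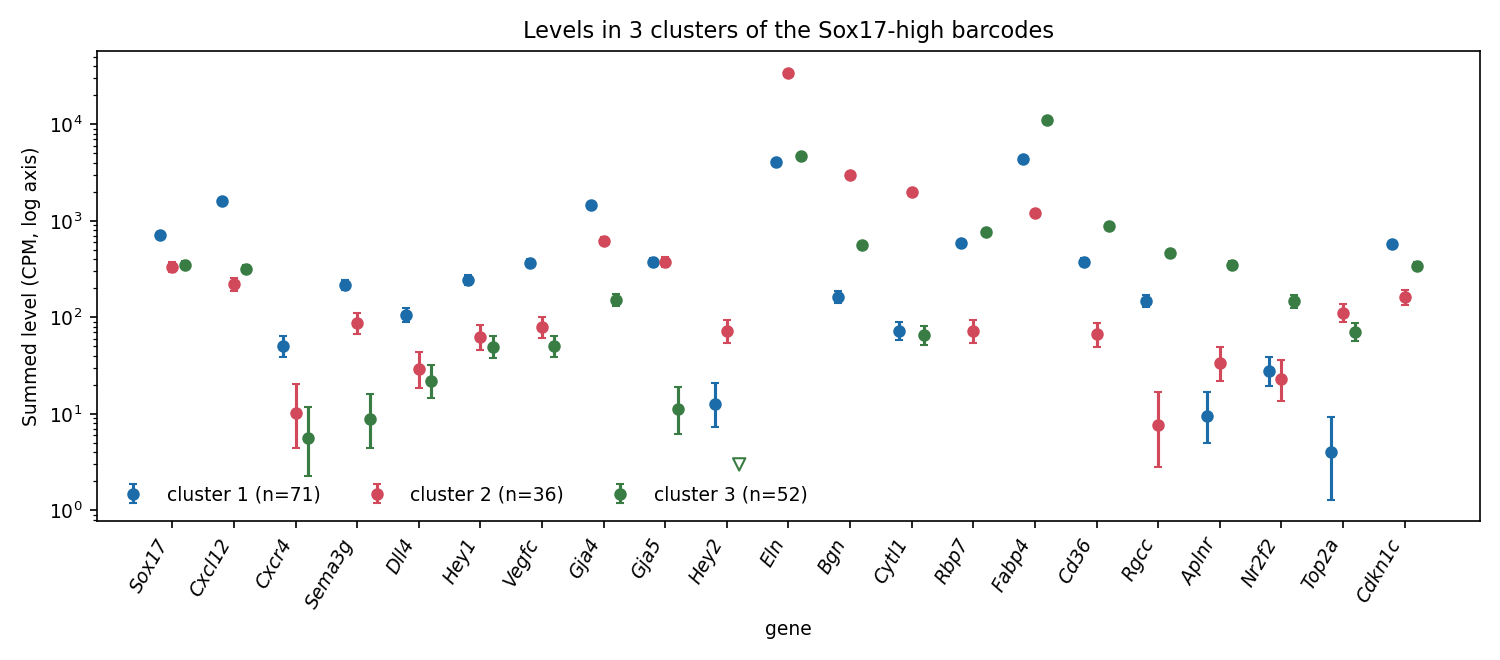
Summed level in CPM on a log axis of 21 genes in the 3 clusters of the Sox17-high barcodes, with exact Poisson 95% intervals for counting error. An open triangle marks the upper limit for a gene with no UMI. Cluster 1 is highest in Cxcl12 (1593 CPM), cluster 2 in Eln (34311 CPM) and cluster 3 in Fabp4 (11066 CPM) and Aplnr (352 CPM), where Gja5 is at 11.3 CPM.

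The barcodes one by one showed the same division. Of the 159 members 99 read Gja5 and 105 read Cxcl12, 76 read both and 31 neither. In cluster 1 Gja5 ranged from 0 to 28 UMIs with a median of 4, in cluster 2 from 0 to 28 with a median of 5, and in cluster 3 from 0 to 4 with a median of 0. Aplnr ranged from 0 to 2 UMIs in cluster 1 and from 0 to 53 in cluster 3, with medians of 0 and 5. The groups overlapped at low counts for each gene.

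**Figure D4:**
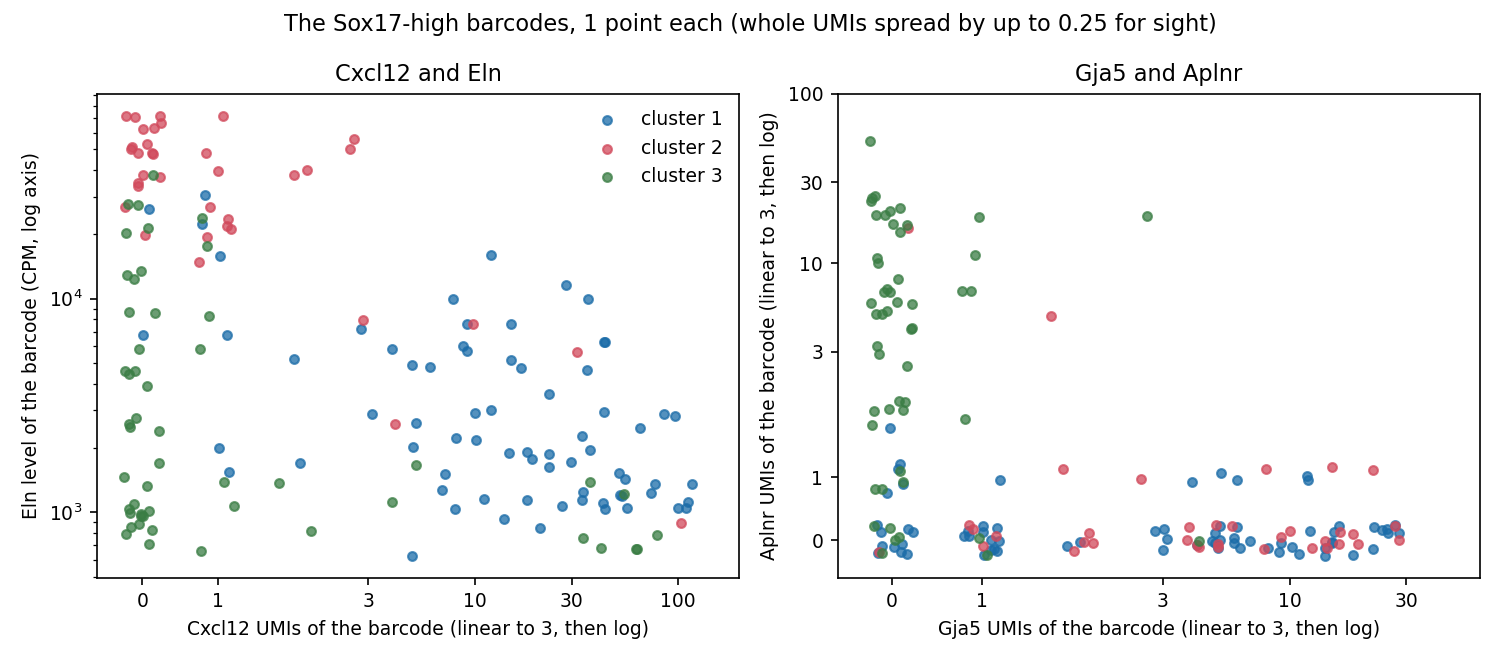
The 159 Sox17-high barcodes as points, coloured by cluster, with Cxcl12 UMIs against the Eln level in CPM (left) and Gja5 UMIs against Aplnr UMIs (right). Barcodes of cluster 2 lie at the top left of the left panel with a median of 0.5 Cxcl12 UMIs, those of cluster 1 mostly to the right with a median of 17, and Aplnr UMIs lie mostly in cluster 3, where Gja5 was read in 9 of 52 barcodes.

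The members were also grouped by their UMIs of Gja5 and of Cxcr4. In 60 members without Gja5, 32 with 1 or 2 UMIs and 67 with 3 or more, Aplnr stood at 298, 102 and 19.4 CPM, Fabp4 at 9332, 5373 and 3476 CPM and Hey1 at 79.3, 143 and 165 CPM. The summed Cxcl12 level had no such order, at 702, 1067 and 757 CPM, but it was read in 29 of the 60 members without Gja5 and in 76 of the 99 with it. In 117 members without Cxcr4, 32 with 1 or 2 UMIs and 10 with 3 or more, Cxcl12 stood at 608, 953 and 1665 CPM, Gja5 at 168, 358 and 476 CPM and Vegfc at 128, 222 and 439 CPM. The last group was also the deepest, with a median of 31310 UMIs.

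With clusters 1 and 2 alone as members, the arterial median against the other endothelial barcodes moved from 1.20 to 1.65, the venous median from -0.40 to -1.82 and the capillary median from 1.51 to 0.46. Gpihbp1 then changed sign, from a log2 ratio of 1.47 to -0.77. The capillary list was thus lower, and the arterial list higher, without the 52 barcodes of cluster 3; this comparison was chosen after seeing the data.

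The same rule found 17 barcodes among 189 endothelial barcodes of the GFP-negative library (8.99%, 5.33 to 14.0%) and 25 of 252 in the RA library (9.92%, 6.52 to 14.3%). The sort differed between the libraries, so these shares are not compared. Gkn3 at 5 UMIs or more was found in 251 endothelial barcodes of the GFP-positive library (10.0%). It was found in none of the GFP-negative and RA libraries, which allows up to 1.93% and 1.45%. With 17 and 25 barcodes the values are given side by side only.

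In those libraries the Sox17-high barcodes held less RNA of Gja5, Cxcl12, Gja4 and Sema3g. Sox17, whose level the rule itself sets, stood at 487, 402 and 448 CPM in the GFP-positive, GFP-negative and RA members. Gja5 stood at 237, 11.6 and 1.99 CPM, and was read in 1 of 17 and 1 of 25 barcodes. Cxcl12 stood at 784, 49.2 and 41.8 CPM, Gja4 at 772, 78.1 and 73.7 CPM, and Sema3g at 108, 0 and 9.96 CPM. Dll4 differed less, at 56.2, 37.6 and 41.8 CPM.

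The capillary genes Fabp4, Gpihbp1 and Rgcc and the apelin receptor gene Aplnr were higher there. Fabp4 stood at 6120, 9491 and 8000 CPM, Gpihbp1 at 363, 1007 and 821 CPM, Rgcc at 232, 622 and 402 CPM and Aplnr at 144, 336 and 480 CPM. Aplnr was read in 15 of 17 and 24 of 25 barcodes. Other genes of the venous list went both ways: Nr2f2 stood at 71.4, 75.2 and 95.6 CPM and Emcn at 343, 445 and 394 CPM, whereas Vwf stood at 236, 14.5 and 21.9 CPM. The GFP-negative and RA levels of Gja5, Fabp4 and Aplnr lay nearer to cluster 3 than to cluster 1. Cluster 3 had 11.3, 11066 and 352 CPM of them and cluster 1 had 375, 4325 and 9.53 CPM. Vwf did not follow, and lay below the 107 CPM of cluster 1 and the 128 and 493 CPM of the parts of cluster 3. Cxcl12 lay below the 220 CPM of cluster 2, the lowest of the 3 clusters. It lay between the 12.4 and 513 CPM of the parts of cluster 3. Eln stood at 11511, 1247 and 157 CPM in the members and at 13852, 1347 and 370 CPM in the other endothelial barcodes of the same libraries. Library, sort and tissue cannot be told apart here.

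**Figure D5:**
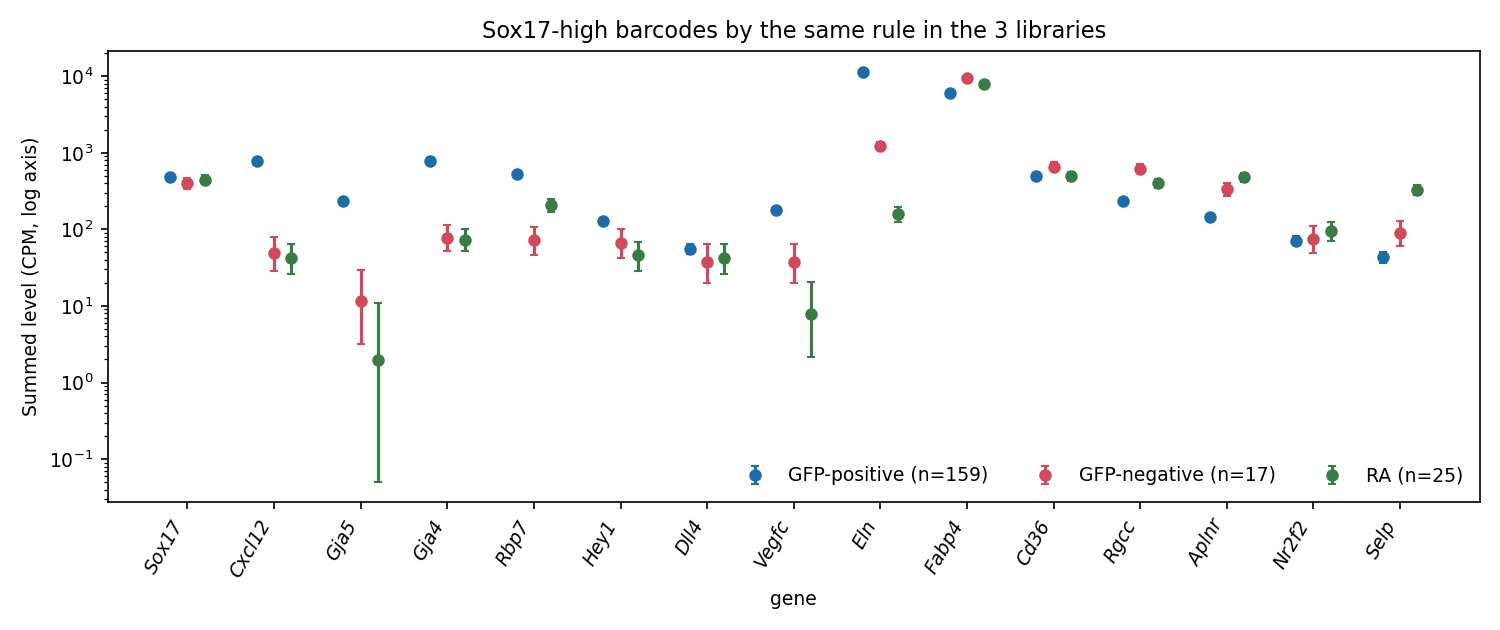
Summed level in CPM on a log axis of 15 genes in the Sox17-high barcodes of the GFP-positive (159), GFP-negative (17) and RA (25) libraries, with exact Poisson 95% intervals for counting error. The Sox17 level (487, 402 and 448 CPM) is set by the rule. Gja5 is at 237, 11.6 and 1.99 CPM and Aplnr at 144, 336 and 480 CPM.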

How the data were processed

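Raw UMI counts per gene and barcode were deposited by the authors as 1 matrix per library, with 28001 features of which 3 are reporter features; every value was a whole count. Cell Ranger (version not given) and the build mm9 are named per the submitters' processing notes. The gene annotation used here was of another build, so no coordinates are given. Barcodes with under 500 genes were left out. UMIs were summed over barcodes and given as CPM. The log2 ratio had 0.5 UMIs added to each sum, and a gene was measured at a mean of at least 10 CPM over both sets and called at 1.5-fold. Intervals are exact at 95%: Poisson for levels, conditional binomial for ratios and Clopper-Pearson for shares. Mesothelial barcodes had no Pecam1 or Cdh5 and at least 4 UMIs of Upk3b, Msln and Krt19. Gene lists (33, with 255 genes found) missed 3 gene symbols not held under 1 ID: Depp1, Ltbp4 and Ccl21a. Depp1, of the arterial list, was in the data as 8430408G22Rik and was treated as a gene outside the lists. The result of 1 marker list is not reported here. Named genes outside the lists were the 12 furthest in each direction against the others and the 8 against the Gkn3-high barcodes, with a mean of at least 20 CPM. Ward clustering used 1000 variable genes and 10 principal components of log counts. No doublet caller was run, and the alternatives without deep or mixed barcodes cannot take its place. Mixed meant at least 4 UMIs of another cell type's list, which most barcodes had. For airway genes alone these were 79.2% of members and 67.2% of the others. On simulated counts for the comparison with the other endothelial barcodes (8077 genes, 200 of them changed 2-fold), 97.5% of the changed genes were past 1.5-fold, as were 0.470% of the unchanged. The simulation held counting error only and no differences between the barcodes of a set, so it gives no rate of false calls in the real data. The members and lists were chosen with earlier results of these data known. Python 3.11.15, numpy 2.4.6, scipy 1.17.1 and pandas 2.3.3 were used.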

Additional observations from a re-analysis of the deposited data

How the results depend on the processing

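No paired analysis was possible because there was 1 library per group, and for the same reason no replicate could be left out and no value has a test. The removal of deep barcodes alone and the members of clusters 1 and 2 alone were settings added after seeing the data. Against the other endothelial barcodes, the 629 higher and 664 lower genes became 2160 and 1236 without deep or mixed barcodes, 1127 and 1057 at 3000 UMIs per barcode, 211 and 186 at a mean of at least 50 CPM, and 261 and 302 at 2-fold. At a mean of at least 5 CPM 1061 genes were lower. Against the Gkn3-high barcodes, the 714 higher and 636 lower genes became 1931 and 2074 without deep or mixed barcodes and 1342 and 1203 at 3000 UMIs. The setting without deep or mixed barcodes kept only 11 members and 120 others, and fewer UMIs were counted there and at 3000 UMIs.

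The arterial median of 1.20 stayed above 0 in every setting. It was 1.43 with Sox17 at 300 CPM in place of 4 UMIs, 1.63 against others without Sox17, 1.58 without Gkn3-high barcodes, 0.93 without lymphatic, endocardial and cycling barcodes, 0.79 without deep or mixed barcodes, 1.38 without deep barcodes, 1.65 with clusters 1 and 2, and 1.38 at 3000 UMIs. The capillary median of 1.51 was 1.05, 1.37 and 1.16 in the settings of 300 CPM, no Gkn3-high, and no lymphatic, endocardial or cycling barcodes, then 0.72 without deep or mixed barcodes, 0.46 with clusters 1 and 2, and 1.31 as a mean of barcodes. The venous median of -0.40 was -0.90 without deep or mixed barcodes and -1.82 with clusters 1 and 2.

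The elastic matrix median of -0.21 had no stable sign. It was -0.80 with Sox17 at 6 UMIs, -0.51 at 300 CPM, 0.26 against others without Sox17, 0.25 without Gkn3-high barcodes, -1.07 without lymphatic, endocardial and cycling barcodes, 0.0018 without deep or mixed barcodes, -0.066 without deep barcodes, 0.23 with clusters 1 and 2, -0.041 as a mean of barcodes and -0.096 at 3000 UMIs. The endocardial median of -2.19 was -0.20, -1.59 and -2.71 without lymphatic, endocardial and cycling, without deep or mixed, and without deep barcodes. The lymphatic median of -1.14 was -2.11 at 300 CPM, -0.22 and -3.79 in the first pair of those settings, and -2.45 with clusters 1 and 2. Of 455 values of single genes, 227 stayed within the counting interval of the reported value, 224 moved beyond it and 4 changed sign: Gpihbp1 to -0.77 with clusters 1 and 2, Nr2f2 to 0.016 without deep or mixed barcodes, and Npr3 to 0.41 and Fabp5 to 0.29 without lymphatic, endocardial and cycling barcodes.

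The share of 6.34% in the GFP-positive library was 8.09% with Sox17 at 3 UMIs, 4.15% at 6 UMIs, 5.26% at 300 CPM, 8.40% without deep or mixed barcodes and 7.47% with Pecam1 and Cdh5 at 8 UMIs. Without deep or mixed barcodes the shares were 33.3% (1 of 3) in the GFP-negative library and 0% (0 of 4) in the RA library, where Sox17 at 3 and 6 UMIs gave 16.7% and 5.56%. Beyond the cause given for the smaller sets, causes of these differences were not tested.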
